A study of Mus musculus with 18 samples.

Results

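Translational efficiency (TE), the footprint level of a gene relative to its RNA level, was compared between cerebella without GTPBP2 and their B6J controls. The members are the 12 of 18 libraries that belong to these 2 genotypes, 3 RNA and 3 ribosome footprint libraries of each, with the 6 libraries of mice without GTPBP1, B6J.*Gtpbp1*-/-, for the last comparison, and the 12931 of 22523 genes with enough counts in both assays. The controls, WT in the labels, were C57BL/6J (B6J) mice. The mutants, B6J-*Gtpbp2*-/-, carried the nmf205 point mutation in *Gtpbp2* on that strain, and all 3 groups share the n-Tr20 mutation of B6J, which lowers the brain's supply of the arginine tRNA that reads AGA. All mice were 3 weeks old, each library came from 1 whole cerebellum, and below "mutant" means B6J-*Gtpbp2*-/-. RNA libraries are labelled Batch 1 and footprint libraries Batch 2, so assay and batch cannot be told apart, and libraries with the same number were not treated as pairs.

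GTPBP2 is a GTPase proposed to rescue ribosomes that stop on an mRNA, by a mechanism that the study calls unknown. Its loss on a background poor in this tRNA leads to neuron death in the cerebellum. Stopped ribosomes and uncharged tRNA can activate GCN2, a kinase that phosphorylates the initiation factor eIF2. Less active eIF2 lowers translation of most mRNAs, while a few with short reading frames upstream of the main start, such as those of ATF4 and of GADD34, are translated more.

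Depth differed widely between assays. RNA libraries held 46027009 to 52114400 estimated counts and footprint libraries 3630823 to 10442573 counts. Levels below are counts scaled to library size (CPM) by TMM over the 12 libraries, listed for libraries 1 to 3 of each group. *Gtpbp2* RNA lay at 67.0, 76.6 and 73.7 CPM in mutant and 87.5, 73.8 and 90.4 CPM in B6J libraries. *Gtpbp2* footprints lay at 29.4, 26.8 and 7.69 CPM in mutant and 45.4, 36.8 and 39.1 CPM in B6J libraries. In RNA the groups overlapped, and in footprints every mutant library lay below every control library, mutant library 3 far below the others. The RNA change was -0.21 ± 0.30 log2 (estimate ± standard error), the footprint change -0.99 ± 0.35 and the TE change -0.77 ± 0.47, and none passed the test in edgeR (adjusted p 0.773, 0.0992 and 0.537). Among single *Gtpbp2* transcripts, the coding Gtpbp2-201 stood at 18.2, 23.5 and 22.5 TPM, a unit that allows for transcript length, in mutant and 31.3, 29.6 and 34.2 TPM in B6J libraries. A shorter coding transcript of 833 bases stood at 8.38, 11.94 and 13.4 TPM in mutant and 6.71, 5.61 and 7.15 TPM in B6J libraries. The retained intron transcript Gtpbp2-212 stood at 24.6, 22.3 and 21.2 TPM in mutant and 7.41, 9.46 and 5.03 TPM in B6J libraries. Of the 14 *Gtpbp2* transcripts with a mean TPM of at least 0.3, 1 was lower and 5 were higher in every mutant than in any B6J library, and 8 overlapped. *Gtpbp1*, which encodes the related GTPase, did not pass for RNA, footprints or TE in edgeR, with a TE change of -0.28 ± 0.22 (adjusted p 0.651).

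The tissue label was checked with marker genes. All 14 granule neuron, 9 Purkinje cell, 12 astrocyte and Bergmann glia, 12 oligodendrocyte, 12 microglia, 9 endothelial and 7 choroid plexus markers had counts in every one of the 12 libraries. Only 4 of 8 forebrain and 5 of 15 skeletal muscle markers had enough counts to be tested. Some libraries stood apart. Of the footprint libraries, B6J library 2 lay at -55.0 on the first principal component (42.4% of variance), beyond the other B6J libraries at -14.6 and -3.14, and its correlation with other footprint libraries ran from 0.926 to 0.959. B6J footprint library 3 lay at -37.0 on the second component (19.8%), against 26.2 at the other end. Choroid plexus markers, led by *Ttr*, summed to 79.9 CPM in that library and to 3950.1 to 9957 CPM in the 4 highest footprint libraries. Transcripts of the Y chromosome were high in 3 of the 12 libraries, all B6J, called libraries with Y-linked transcripts below. *Ddx3y*, an RNA helicase gene, had 4663 counts in B6J RNA library 2, 379 in B6J footprint library 1 and 330 in B6J footprint library 2, and at most 26 in every other library. *Kdm5d*, also on the Y chromosome, had 2348 counts in B6J RNA library 2 and 67 to 90 in the other RNA libraries. Sex is not in the labels, and no mutant library had Y-linked transcripts at the level of these 3, so a difference between sexes cannot be fully told apart from genotype.

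The interaction of genotype and assay was tested with edgeR, and a call means a Benjamini-Hochberg adjusted p of at most 0.05. For TE, edgeR called 1 gene (0.00773% of those tested), *Cacng3*, which was lower, and 1554 genes had an unadjusted p below 0.05 (12%, 871 higher, 6.74%, and 683 lower, 5.28%). DESeq2, the engine behind the study's own TE tool, called 160 genes on the same counts (1.24%), 69 higher (0.534%) and 91 lower (0.704%). With limma-voom the number was 0, and 1345 genes had an unadjusted p below 0.05. The tools thus differ widely in how many genes they call, and genes called by DESeq2 alone are named here as such. A term for libraries with Y-linked transcripts left 0 edgeR calls for TE, 884 genes with an unadjusted p below 0.05.

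Single libraries moved these counts. Without B6J footprint library 3 edgeR called 158 genes for TE, 71 of them among the 160 of DESeq2. Without mutant footprint library 3 it called 6, without mutant footprint library 2 or B6J RNA library 3 it called 3, and without mutant RNA library 1 it called 1. Leaving out any of the other 7 libraries gave 0, with 1123 to 1630 genes at an unadjusted p below 0.05. The DESeq2 count was 807 without B6J footprint library 3, of which 157 were among the 160, and 405 without mutant footprint library 3. It was 64 without mutant RNA library 3, 65 without B6J RNA library 1, 85 without B6J RNA library 2 and between 107 and 212 without any other library. Of the genes named below, 27 were called by DESeq2 with all libraries and again each time a library was left out, and these are followed most closely.

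RNA and footprints were also compared separately in the same edgeR fit. RNA was higher in the mutant for 368 genes (2.85%) and lower for 446 (3.45%), 814 in all (6.29%), and footprints were higher for 546 (4.22%) and lower for 699 (5.41%), 1245 in all (9.63%). Of the RNA calls 45.2% were higher, and with upper quartile scaling 57% were. The RNA count fell to 272 without mutant RNA library 3, 440 without mutant RNA library 2, 322 without B6J RNA library 1 and 334 without B6J RNA library 2. The footprint count was 664 without B6J footprint library 2, 698 without mutant footprint library 1 and 1866 without B6J footprint library 3. With the RNA libraries fitted alone edgeR called 2247 genes (17.4%, 1049 higher, 8.11%, and 1198 lower, 9.26%), and with the footprint libraries alone 388 (3%, 174 higher, 1.35%, and 214 lower, 1.65%). DESeq2 called 1461 genes for RNA (11.3%, 641 higher, 4.96%, and 820 lower, 6.34%) and 2066 for footprints (16%). With limma-voom 2721 genes passed for RNA and 326 for footprints, and with a term for libraries with Y-linked transcripts, tried after the values were seen, 445 and 102. Of the footprint changes called a rise or fall below, those of *Tyro3*, *Nars*, *Psat1*, *Rpl41*, *Casq2*, *Gng13*, *Tmsb4x*, *Rbfox3*, *Lsm14b*, *Lingo1*, *Zfp706* and *Aars* did not pass with this term (adjusted p 0.0608 to 0.234). Among the 368 genes with higher RNA the median change was 1.12 in RNA and 0.64 in footprints, and the TE change was below 0 for 80.4% of them, against 47.3% of all genes tested. Among the 446 with lower RNA the medians were -0.65 in RNA and -0.50 in footprints, with a median TE change of 0.16 against 0.03 over all genes. These figures are a description, because a gene chosen for its RNA change carries that library noise into its TE change with the opposite sign.

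**Figure D1:**
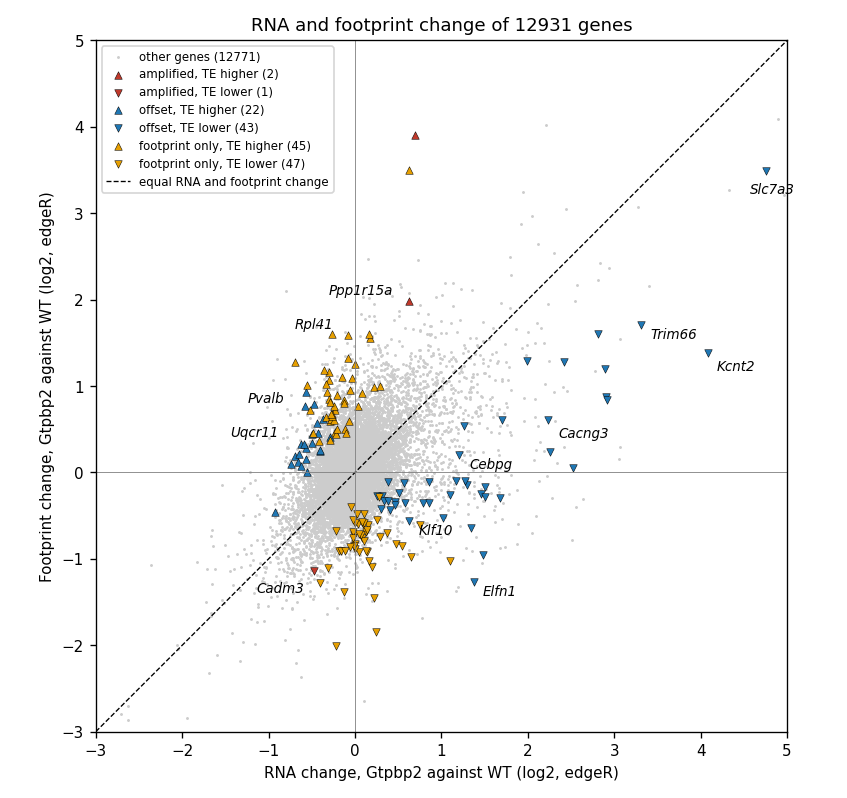
RNA and footprint log2 change between mutant and B6J for each gene tested, with the genes called for TE by DESeq2 coloured by class. On the diagonal the 2 changes are equal, and 7 genes lie outside the axes.

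The 160 genes fall into 3 classes by DESeq2's own RNA call. A TE change is amplified where RNA changed in the same direction, offset where RNA changed the opposite way, and footprint only where RNA was not called, a name that does not mean RNA was level. Of the 69 genes with higher TE, 2 were amplified, 22 offset and 45 footprint only. Of the 91 with lower TE, 1 was amplified, 43 offset and 47 footprint only. The 43 offset genes with lower TE had a median RNA change of 1.28 and a median footprint change of -0.20, while the 22 with higher TE had medians of -0.56 and 0.29. The class sizes and medians are a description, because the RNA and TE calls share RNA counts, whose noise enters TE with the opposite sign. The single edgeR call, *Cacng3*, was offset, and the other 5 combinations had 0 genes in edgeR. *Cacng3*, *Ppp1r15a*, *Slc7a3* and *Trim66* were to be named in any case or by the edgeR call, and the other genes called by DESeq2 are named below after their values were seen.

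The 43 offset genes with lower TE included genes whose RNA rose while footprints lagged. *Cacng3* encodes an auxiliary subunit of AMPA glutamate receptors. Its RNA lay at 31.3, 37.1 and 39.3 CPM in mutant and 7.25, 7.86 and 7.81 CPM in B6J libraries. Its footprints lay at 21.0, 21.2 and 26.02 CPM in mutant and 16.8, 15.5 and 13.1 CPM in B6J libraries. Neither assay overlapped between groups, and the gap was far wider in RNA. RNA rose by 2.23 ± 0.16 log2 (edgeR adjusted p 3.34e-07), the footprint change was 0.60 ± 0.17, and TE fell by 1.63 ± 0.23 (adjusted p 0.0372 by edgeR and 1.11e-07 by DESeq2, range 7.89e-09 to 0.524 over all settings, the DESeq2 fits without 1 library included). The edgeR call was lost without mutant footprint library 1 (0.135), mutant RNA library 2 (0.0720), mutant RNA library 3 (0.222), B6J footprint library 1 (0.111), B6J footprint library 2 (0.0629), B6J RNA library 1 (0.205) or B6J RNA library 2 (0.155), and DESeq2 kept its call without any single library.

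*Trim66*, which encodes a chromatin protein of the tripartite motif family, had a similar pattern. *Trim66* RNA lay at 142, 177 and 197 CPM in mutant and 15.02, 18.8 and 18.3 CPM in B6J libraries. Its footprints lay at 66.5, 69.4 and 53.7 CPM in mutant and 19.5, 24.7 and 14.4 CPM in B6J libraries. Both assays separated the groups fully. RNA rose by 3.31 ± 0.18 and footprints by 1.70 ± 0.19 in edgeR (adjusted p 2.80e-08 and 0.000128), and the TE change was -1.60 ± 0.26 (adjusted p 2.04e-05 by DESeq2 and 0.0820 by edgeR, range 1.42e-08 to 0.524 over all settings). *Kcnt2* encodes a potassium channel subunit opened by sodium. For *Kcnt2*, RNA was 17.8, 16.2 and 19.9 CPM in mutant and 0.434, 1.18 and 1.53 CPM in B6J libraries. *Kcnt2* footprints were 12.2, 8.92 and 6.41 CPM in mutant and 4.99, 2.69 and 2.91 CPM in B6J libraries. RNA was near 0 in every B6J library, and the groups did not overlap in either assay. *Kcnt2* RNA rose by 4.09 ± 0.38 (edgeR adjusted p 6.87e-06), the footprint change was 1.38 ± 0.42 and the TE change -2.71 ± 0.55 (adjusted p 0.000824 by DESeq2 and 0.0939 by edgeR, range 3.37e-05 to 0.535 over all settings). DESeq2 called *Trim66* and *Kcnt2* without each single library too.

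*Slc7a3* encodes a transporter of arginine and other cationic amino acids. *Slc7a3* RNA lay at 125, 175 and 165 CPM in mutant and 6.06, 6.26 and 4.79 CPM in B6J libraries. In footprints the gene lay at 182, 165 and 184 CPM in mutant and 11.8, 21.8 and 14.1 CPM in B6J libraries. The groups lay more than an order of magnitude apart in RNA and somewhat less in footprints. *Slc7a3* RNA rose by 4.76 ± 0.20 and footprints by 3.49 ± 0.20 in edgeR (adjusted p 1.31e-09 and 1.78e-07), and the TE change was -1.28 ± 0.26 (adjusted p 0.00194 by DESeq2 and 0.0944 by edgeR, range 0.000186 to 0.524 over all settings), kept by DESeq2 without each library. *Slc7a5*, the light chain of a transporter of large neutral amino acids, had RNA of 281, 325 and 321 CPM in mutant and 85.9, 80.6 and 67.1 CPM in B6J libraries. Its footprints were 423, 419.9 and 507 CPM in mutant and 167, 176 and 211 CPM in B6J libraries. The groups did not overlap in either assay. RNA rose by 1.99 ± 0.13 and footprints by 1.28 ± 0.13 in edgeR (adjusted p 2.52e-07 and 9.27e-05), with a TE change of -0.70 ± 0.19 (adjusted p 0.0242 by DESeq2 and 0.204 by edgeR, range 0.00320 to 0.524 over all settings). DESeq2 lost this call without mutant footprint library 1 (0.0995), mutant footprint library 2 (0.0672), mutant RNA library 2 (0.100), mutant RNA library 3 (0.137), B6J RNA library 2 (0.0722) or B6J RNA library 3 (0.0633). Over the 27 amino acid transporters tested, the median TE change was -0.17 (TE -0.32 without mutant footprint library 3 and -0.31 without B6J footprint library 1), with 7 above and 20 below 0, and DESeq2 called 2 lower and 0 higher, while 2 had an unadjusted edgeR p below 0.05 on the higher side and 5 on the lower. Of all genes tested 6.74% were higher and 5.28% lower at this cutoff. *Slc7a11*, which imports cystine, had a TE change of -0.77 ± 0.31 that was not called (adjusted p 0.336 by edgeR).

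*Slc7a3*, *Slc7a5* and *Trim66* are known targets of the transcription factor ATF4. All 36 ATF4 target genes listed were tested. This list was chosen with earlier results of these data known, so the numbers of targets called describe it and do not test it. In edgeR 32 had higher RNA and 30 had higher footprints, and none was lower in either. Over all genes tested 2.85% had higher RNA and 4.22% higher footprints. With each assay fitted alone, 36 of the targets had higher RNA and 27 higher footprints. Their median change was 1.95 in RNA, 1.63 in footprints and -0.40 in TE, with 27 of 36 TE changes below 0. DESeq2 called 4 of them lower for TE and 0 higher, and by unadjusted edgeR p below 0.05, 11 were lower and 1 was higher. Of all genes tested 5.28% were lower and 6.74% higher at this cutoff. Most targets rose in both assays, by less in footprints. *Asns*, the asparagine synthetase gene, rose by 1.98 ± 0.14 in RNA and 1.36 ± 0.14 in footprints in edgeR (adjusted p 4.62e-07 and 9.27e-05), with a TE change of -0.62 ± 0.20 (adjusted p 0.253) that DESeq2 called only without mutant RNA library 1 (0.00644). *Chac1*, which encodes an enzyme that breaks down glutathione, rose by 2.93 ± 0.15 and 2.36 ± 0.17 (adjusted p 1.89e-08 and 1.39e-06 in edgeR) with TE at -0.57 ± 0.22. *Sesn2*, the gene of a leucine sensor that restrains mTORC1, rose by 2.84 ± 0.16 and 2.43 ± 0.17 (adjusted p 3.24e-08 and 1.39e-06 in edgeR) with TE at -0.41 ± 0.23. For the mitochondrial serine enzyme gene *Shmt2* the rises were 2.11 ± 0.13 and 1.73 ± 0.13 (edgeR adjusted p 8.04e-08 and 2.52e-06) with TE at -0.38 ± 0.18. The edgeR adjusted p for TE of *Chac1*, *Sesn2* and *Shmt2* was 0.332, 0.492 and 0.421.

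*Nars*, an asparaginyl-tRNA synthetase gene and the most abundant of the ATF4 targets, rose by similar amounts in both assays, by 1.11 ± 0.14 in RNA and 1.02 ± 0.14 in footprints in edgeR (adjusted p 0.000179 and 0.000527). *Psat1*, which encodes an enzyme of serine synthesis, rose by 0.99 ± 0.17 and 1.17 ± 0.17 (edgeR adjusted p 0.00218 and 0.000844). The alanyl-tRNA synthetase gene *Aars* rose by 0.87 ± 0.12 and 0.91 ± 0.12 (edgeR adjusted p 0.000454 and 0.000475). Of 23 cytosolic aminoacyl-tRNA synthetases tested, 12 had higher RNA and 11 had higher footprints in edgeR, none was lower, and the median TE change was -0.04 (TE -0.19 to 0.0204 without 1 library).

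In *Cebpg* and *Lrrtm1* of this class RNA rose and no footprint change was called in edgeR. *Cebpg* encodes a bZIP partner of ATF4. *Cebpg* RNA lay at 102, 139.9 and 137 CPM in mutant and 50.8, 56.6 and 57.1 CPM in B6J libraries. Its footprints lay at 26.4, 29.0 and 26.3 CPM in mutant and 20.9, 26.5 and 23.4 CPM in B6J libraries. RNA separated the groups by a wide margin, while the footprint ranges overlapped. RNA rose by 1.21 ± 0.13 in edgeR (adjusted p 5.24e-05), the footprint change was 0.20 ± 0.16 and the TE change -1.005 ± 0.21 (adjusted p 0.00246 by DESeq2 and 0.0939 by edgeR, range 2.02e-06 to 0.524 over all settings). *Lrrtm1*, a gene for a postsynaptic adhesion protein that binds neurexins, showed the same pattern. Its RNA lay at 15.9, 12.5 and 16.2 CPM in mutant and 5.28, 7.19 and 7.32 CPM in B6J libraries. *Lrrtm1* footprints lay at 20.2, 24.3 and 19.5 CPM in mutant and 23.4, 21.5 and 23.3 CPM in B6J libraries. RNA did not overlap and footprints did. RNA rose by 1.17 ± 0.18 in edgeR (adjusted p 0.000923), the footprint change was -0.10 ± 0.19 and the TE change -1.28 ± 0.26 (adjusted p 0.000824 by DESeq2 and 0.0939 by edgeR, range 0.000307 to 0.524 over all settings). With protein-coding transcripts only, the RNA change of *Lrrtm1* was 2.18, no longer called (adjusted p 0.166), and its TE change -2.31. DESeq2 called both genes without each library.

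*Klf10* encodes a zinc finger transcription factor induced by TGF-beta, and its assays pointed in opposite directions. RNA was 31.1, 31.1 and 28.7 CPM in mutant and 18.4, 18.8 and 21.9 CPM in B6J libraries. Footprints of *Klf10* were 20.5, 24.5 and 21.1 CPM in mutant and 27.5, 39.5 and 29.9 CPM in B6J libraries. In neither assay did the groups overlap. Its changes were 0.62 ± 0.15 in RNA (0.40 with effective transcript length), -0.56 ± 0.16 in footprints and -1.18 ± 0.22 in TE (adjusted p 0.000119 by DESeq2 and 0.0820 by edgeR, range 2.87e-05 to 0.524 over all settings). *Slc6a11*, the gene of a glial GABA transporter, had RNA of 249.7, 101 and 211 CPM in mutant and 51.8, 59.4 and 93.7 CPM in B6J libraries. Its footprints were 179, 160.3 and 227 CPM in mutant and 239, 247 and 190.2 CPM in B6J libraries. Mutant RNA library 2 was well below the other mutant libraries though above the B6J libraries, and footprints overlapped. For RNA the change was 1.46 ± 0.31, the footprint change -0.25 ± 0.31 and the TE change -1.71 ± 0.44 (adjusted p 0.00568 by DESeq2 and 0.228 by edgeR, range 9.14e-06 to 0.715 over all settings). For *Eif6*, which encodes a factor that keeps ribosomal subunits apart, the changes were 0.30 ± 0.11 in RNA, -0.42 ± 0.12 in footprints and -0.72 ± 0.17 in TE (adjusted p 0.00232 by DESeq2 and 0.132 by edgeR, range 0.000495 to 0.551 over all settings). DESeq2 kept *Klf10*, *Slc6a11* and *Eif6* without each library.

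Other genes of this class were called less firmly. *Cyb5r1*, a gene for a cytochrome b5 reductase, had a TE change of -1.14 ± 0.27 with an RNA change of 2.42 ± 0.19 and a footprint change of 1.28 ± 0.20 (adjusted p 0.0134 by DESeq2 and 0.140 by edgeR, range 4.55e-06 to 0.547 over all settings), and DESeq2 lost the TE call without mutant RNA library 2 (0.0651), mutant RNA library 3 (0.102) or B6J RNA library 2 (0.0621). The TE change of *Egr1*, an immediate early transcription factor gene, was -1.36 ± 0.32 and its RNA rose by 1.10 ± 0.22 (adjusted p 0.0105 by DESeq2 and 0.159 by edgeR, range 0.00110 to 0.524 over all settings for TE), with the DESeq2 call lost without mutant footprint library 1 (0.0505), mutant RNA library 2 (0.0534) or B6J RNA library 1 (0.0605). *Egr1* was the only one of 19 immediate early genes called by DESeq2, and their median TE change was -0.26 (TE 0.0287 without mutant RNA library 2, -0.52 without B6J footprint library 2, 0.18 without B6J footprint library 3 and -1.03 with the Y-linked term). *Elfn1*, which encodes a postsynaptic protein that recruits metabotropic glutamate receptors, had few counts. Its RNA lay at 5.50, 2.102 and 3.45 CPM in mutant and 1.41, 1.36 and 1.47 CPM in B6J libraries. Its footprints lay at 1.75, 1.95 and 3.15 CPM in mutant and 6.13, 4.49 and 6.47 CPM in B6J libraries. The groups did not overlap in either assay, in opposite directions. The TE change was -2.65 ± 0.55 (adjusted p 0.00213 by DESeq2 and 0.0953 by edgeR, range 8.86e-05 to 0.524 over all settings). DESeq2 called *Elfn1* in the 10 fits without a library that gave it an adjusted p, and 2 gave none.

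Of 63 potassium channel genes tested, 45 had a TE change below 0, with a median of -0.18 (TE -0.30 without mutant footprint library 2, -0.29 without B6J footprint library 1 and -0.11 without B6J footprint library 2), and DESeq2 called *Kcnt2* only. Among 30 glutamate receptors and TARPs, which include *Cacng3*, the median TE change was -0.08 (TE -0.20 to -0.046 without 1 library), and among 26 genes of GABA and glycine transmission, which include *Slc6a11*, it was -0.09 (TE -0.24 to -0.024 without 1 library).

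Only 2 genes with higher TE were amplified, and 1 of them is a long known case. *Ppp1r15a* encodes GADD34, the stress-induced subunit that brings a phosphatase to eIF2. *Ppp1r15a* RNA lay at 37.3, 45.7 and 42.2 CPM in mutant and 28.2, 29.8 and 23.0 CPM in B6J libraries. Its footprints lay at 12.5, 14.2 and 14.8 CPM in mutant and 2.72, 4.04 and 3.72 CPM in B6J libraries. The groups separated in both assays, by far more in footprints. The RNA change was 0.63 ± 0.15, footprints rose by 1.98 ± 0.21 in edgeR (adjusted p 0.000117) and the TE change was 1.35 ± 0.26 (adjusted p 0.00464 by DESeq2 and 0.0939 by edgeR, range 0.000724 to 0.524 over all settings), a call that DESeq2 kept without each library. The other was *Cd300a*, a gene for an inhibitory receptor of myeloid cells. *Cd300a* footprints lay at 3.33, 4.46 and 1.97 CPM in mutant and 0.454, 0 and 0.162 CPM in B6J libraries, and rest on at most 2 counts in any control library, so it passed the count filter through mutant libraries and is not followed further.

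*Atf4*, *Atf5* and *Ddit3*, also with upstream reading frames, had no TE call in the fits with all libraries. *Atf4* RNA lay at 283, 341 and 316 CPM in mutant and 150.2, 181 and 195 CPM in B6J libraries. *Atf4* footprints lay at 223, 170.4 and 211 CPM in mutant and 55.8, 102 and 42.8 CPM in B6J libraries. The groups did not overlap in either assay. The RNA change was 0.84 ± 0.23, footprints rose by 1.61 ± 0.24 in edgeR (adjusted p 0.00131) and the TE change was 0.77 ± 0.33 (adjusted p 0.382 by edgeR and 0.294 by DESeq2, range 0.000549 to 0.595). DESeq2 called it without B6J footprint library 2 (0.000549). *Atf5*, which encodes a related bZIP factor, had RNA of 61.6, 78.6 and 60.1 CPM in mutant and 16.3, 19.9 and 16.9 CPM in B6J libraries. Footprints of *Atf5* were 65.1, 50.2 and 68.5 CPM in mutant and 6.35, 11.4 and 7.60 CPM in B6J libraries. Both assays separated the groups. RNA rose by 1.92 ± 0.17 and footprints by 2.87 ± 0.21 in edgeR (adjusted p 6.20e-06 and 1.50e-06), and the TE change was 0.96 ± 0.27 (adjusted p 0.0647 by DESeq2 and 0.238 by edgeR, range 0.0149 to 0.635 over all settings), called by DESeq2 without mutant footprint library 2 (0.0227), mutant RNA library 2 (0.0309) or B6J footprint library 2 (0.0149). For *Ddit3*, the gene of the stress factor CHOP, the RNA change was 1.18 ± 0.25, the footprint change 1.63 ± 0.35 (1.05 without mutant footprint library 3) and the TE change 0.44 ± 0.43 (edgeR adjusted p 0.717), which turned to -0.16 without that library. Over the 14 uORF-controlled stress mRNAs tested, the median change was 0.84 in RNA, 1.33 in footprints and 0.07 in TE (TE -0.0891 to 0.15 without 1 library). Of these, 8 had higher RNA, 9 higher and 1 lower footprints in edgeR, and TE was above 0 in 7 and below 0 in 7. With each assay fitted alone, edgeR called 10 higher in RNA and 7 higher in footprints.

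The start sites of *Atf4* and *Ppp1r15a* are shown because these mRNAs carry the upstream starts to which this class owes its name. The sequences run 5′ to 3′ on the mRNA strand of build GRCm38 (Gencode M21), with the ATG in capitals. On the plus strand of chromosome 15, Atf4-201 has its first leader ATG in chr15:80255294-80255311, with 36 codons before its stop, and its second in chr15:80255573-80255590, with 3 codons. The frame of leader ATG 3, 59 codons long, runs past the main start, and its window spans an exon junction and has no single start and end. The main start lies in chr15:80256290-80256307. On the minus strand of chromosome 7, Ppp1r15a-201 has 3 leader ATGs, in chr7:45526226-45526243, chr7:45526182-45526199 and chr7:45526081-45526098, with frames of 45, 34 and 26 codons that all stop before the main start in chr7:45525374-45525391.
Atf4 leader ATG 1: ttttctctcATGgggcct
Atf4 leader ATG 2: gcggccaccATGgcgtat
Atf4 leader ATG 3: gcctaagccATGgcgctc
Atf4 main start: ccccacaacATGaccgag
Ppp1r15a leader ATG 1: gcgtggacgATGttggcg
Ppp1r15a leader ATG 2: gaagattacATGcgatat
Ppp1r15a leader ATG 3: gagggcgacATGaacccg
Ppp1r15a main start: cccagacacATGgccccg

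Several offset genes had higher TE. *Uqcr11* encodes a small subunit of respiratory complex III. *Uqcr11* RNA lay at 37.9, 35.2 and 31.1 CPM in mutant and 56.7, 49.0 and 54.6 CPM in B6J libraries. *Uqcr11* footprints lay at 147, 137 and 159 CPM in mutant and 108, 130.3 and 113 CPM in B6J libraries. Mutant RNA lay below and mutant footprints above every control library. RNA fell by 0.62 ± 0.12 in edgeR (adjusted p 0.00483), the footprint change was 0.33 ± 0.12 and the TE change 0.96 ± 0.17 (adjusted p 0.000119 by DESeq2 and 0.0820 by edgeR, range 2.45e-05 to 0.524 over all settings). *Armh4*, a gene for a membrane protein, had RNA of 135, 133 and 116 CPM in mutant and 211, 219 and 211 CPM in B6J libraries. Its footprints were 291, 343 and 275 CPM in mutant and 285, 279 and 288 CPM in B6J libraries. RNA separated the groups while footprints overlapped. RNA fell by 0.74 ± 0.11 in edgeR (adjusted p 0.000729), the footprint change was 0.09 ± 0.11 and the TE change 0.84 ± 0.16 (adjusted p 8.65e-05 by DESeq2 and 0.0820 by edgeR, range 2.22e-06 to 0.524 over all settings).

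*Ccng2*, which encodes a cyclin that restrains the cell cycle, showed RNA of 59.1, 57.1 and 51.8 CPM in mutant and 92.2, 94.4 and 85.6 CPM in B6J libraries. Its footprints were 29.7, 35.1 and 30.4 CPM in mutant and 25.0, 27.6 and 30.1 CPM in B6J libraries. Again RNA separated the groups and footprints overlapped. RNA fell by 0.70 ± 0.12 in edgeR (adjusted p 0.00189), and the TE change was 0.89 ± 0.18 (adjusted p 0.000824 by DESeq2 and 0.0939 by edgeR, range 0.000239 to 0.537 over all settings). *Iffo2*, an intermediate filament family gene, had an RNA change of -0.57 ± 0.15, a footprint change of 0.93 ± 0.21 and a TE change of 1.499 ± 0.26 (adjusted p 0.000119 by DESeq2 and 0.0820 by edgeR, range 2.51e-05 to 0.524 over all settings). For *Rmdn3*, whose product tethers mitochondria to the endoplasmic reticulum (ER), the changes were -0.43 ± 0.11, 0.45 ± 0.12 and 0.88 ± 0.16 (adjusted p 0.000137 by DESeq2 and 0.0820 by edgeR, range 3.64e-06 to 0.524 over all settings for TE). The glycolysis gene *Pgk1* had an RNA change of -0.40 ± 0.11, a footprint change of 0.25 ± 0.12 and a TE change of 0.65 ± 0.16 (adjusted p 0.00824 by DESeq2 and 0.186 by edgeR, range 0.00149 to 0.613 over all settings). *Ccng2*, *Iffo2*, *Rmdn3* and *Pgk1*, like *Uqcr11* and *Armh4*, were called by DESeq2 without each library.

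The genes with lower RNA that were to be named in any case had no TE call. *Tyro3*, a receptor tyrosine kinase gene, fell by 1.47 ± 0.16 in RNA and fell by 0.97 ± 0.16 in footprints in edgeR (adjusted p 3.20e-05 and 0.00167), with a TE change of 0.51 ± 0.22 (adjusted p 0.381 by edgeR), called by DESeq2 only without B6J footprint library 2 (0.0297). For *Tnc*, the gene of the matrix protein tenascin C, the changes were -1.65 ± 0.42 in RNA, -1.29 ± 0.45 in footprints and 0.36 ± 0.61 in TE, and its footprints in mutant library 3 lay at 12.7 CPM against 49.9 and 59.7 CPM in the other 2.

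Respiratory chain genes as a list lay on the side of higher TE. All 75 nuclear oxidative phosphorylation genes were tested, and 57 had a TE change above 0, with a median of 0.20 against 0.03 over all genes (TE 0.0915 without mutant footprint library 3 and 0.12 without B6J footprint library 2). Their median change was -0.33 in RNA and -0.12 in footprints. In edgeR 19 had lower RNA and 9 lower footprints, and none was higher in either. With each assay fitted alone, 42 had lower RNA and 0 lower footprints. DESeq2 called 3 higher for TE and 0 lower. By unadjusted edgeR p below 0.05, 14 were higher and 2 lower, against 6.74% and 5.28% of all genes tested. The most abundant, the ATP synthase gene *Atp5b*, had an RNA change of -0.40 ± 0.12, a footprint change of 0.01 ± 0.12 and a TE change of 0.40 ± 0.17 (adjusted p 0.374 by edgeR), called by DESeq2 only without B6J footprint library 3 (0.000217). The 13 genes of the mitochondrial genome had a median TE change of 0.24 with none called (TE -0.27 without mutant footprint library 1, 0.56 without mutant footprint library 2, -0.14 without mutant footprint library 3, -0.16 without B6J footprint library 1, -0.0193 without B6J footprint library 2, 0.41 without B6J footprint library 3, 0.0231 with the Y-linked term, 0.0769 with filterByExpr and -0.1291 at 50 counts), and *mt-Co1* footprints varied from 895 to 4256 CPM between libraries. The 77 mitochondrial ribosomal protein genes had a median of 0.05 (TE -0.0433 to 0.11 without 1 library).

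Selenoproteins, which need a UGA codon to be read as selenocysteine, and ER chaperones were further lists with most members above 0. Of 20 selenoproteins tested, 16 had a TE change above 0, the median was 0.27 (TE 0.15 without mutant footprint library 3, 0.12 without B6J footprint library 1 and 0.16 with the Y-linked term), DESeq2 called 2 higher and 0 lower, and by unadjusted edgeR p below 0.05, 6 were higher and 0 lower. Of all genes tested 6.74% were higher and 5.28% lower at this cutoff. *Gpx1*, a glutathione peroxidase gene, had footprints of 92.1, 109 and 97.2 CPM in mutant and 71.7, 65.0 and 78.7 CPM in B6J libraries. *Gpx1* RNA was 31.3, 32.1 and 34.2 CPM in mutant and 39.1, 36.5 and 39.4 CPM in B6J libraries. In neither assay did the groups overlap, with RNA lower and footprints higher in the mutant. The TE change of *Gpx1* was 0.70 ± 0.16 (adjusted p 0.00336 by DESeq2 and 0.140 by edgeR, range 0.000366 to 0.589 over all settings), called by DESeq2 without each library. *Selenop*, the most abundant of the list, had a TE change of 0.19 ± 0.33.

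Of 33 genes of ER chaperones and the unfolded protein response, 22 had a TE change above 0, with a median of 0.13 (TE 0.0834 without mutant RNA library 1, 0.0712 without B6J RNA library 3, 0.0831 without B6J footprint library 1, 0.0816 without B6J footprint library 2, 0.0561 without B6J footprint library 3, 0.0536 with protein-coding transcripts only and 0.35 with the Y-linked term), and by unadjusted edgeR p below 0.05, 6 were higher and 0 lower. At this cutoff 6.74% of all genes tested were higher and 5.28% lower. RNA was higher for 1 and footprints for 2 of the 33 in edgeR, and DESeq2 called 1 of them higher for TE. *Hspa5*, the gene of the chaperone BiP, had RNA of 279, 306 and 381 CPM in mutant and 354, 361 and 502 CPM in B6J libraries. *Hspa5* footprints were 999, 1102 and 979.6 CPM in mutant and 817, 808 and 809 CPM in B6J libraries. RNA overlapped, and every mutant footprint library lay above the controls. The TE change was 0.67 ± 0.21 (adjusted p 0.246 by edgeR and 0.0917 by DESeq2, range 0.0368 to 0.613), called by DESeq2 only without mutant RNA library 3 (0.0368).

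In the footprint only class with higher TE were *Rpl41*, *Tmsb4x* and *Gng13*. *Rpl41* encodes the smallest protein of the large ribosomal subunit. *Rpl41* RNA lay at 91.4, 97.0 and 82.6 CPM in mutant and 99.4, 88.5 and 98.6 CPM in B6J libraries. *Rpl41* footprints lay at 186, 104 and 142 CPM in mutant and 43.6, 35.0 and 64.2 CPM in B6J libraries. RNA overlapped between the groups, and footprints in every mutant library exceeded every control library. Footprints rose by 1.59 ± 0.21 in edgeR (adjusted p 0.000521), and the TE change was 1.67 ± 0.29 (adjusted p 0.000207 by DESeq2 and 0.0820 by edgeR, range 1.42e-08 to 0.524 over all settings). The ribosomal protein genes as a whole did not share this: over 80 tested, the median TE change was 0.05 (TE -0.0765 to 0.0935 without 1 library), DESeq2 called 1 higher and 1 lower, and the most abundant, *Rpl3*, had a TE change of 0.04 ± 0.22. *Tmsb4x*, the gene of thymosin beta 4, which binds actin monomers, had RNA of 349, 311 and 299.5 CPM in mutant and 312, 319 and 366 CPM in B6J libraries. *Tmsb4x* footprints were 1119, 895 and 1201 CPM in mutant and 568, 463 and 627 CPM in B6J libraries. Here too RNA overlapped and footprints did not. Footprints rose by 0.96 ± 0.14 in edgeR (adjusted p 0.000844), and the TE change was 1.01 ± 0.20 (adjusted p 0.000824 by DESeq2 and 0.0939 by edgeR, range 2.27e-05 to 0.524 over all settings).

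*Gng13* encodes a small G protein gamma subunit. Its RNA lay at 114, 114 and 79.3 CPM in mutant and 119, 129 and 132 CPM in B6J libraries. *Gng13* footprints lay at 1527, 1621 and 1675 CPM in mutant and 783, 552 and 956 CPM in B6J libraries. Footprints separated the groups by a wide margin, and mutant RNA library 3 was lower than the rest. Footprints rose by 1.07 ± 0.18 in edgeR (adjusted p 0.00167), and the TE change was 1.38 ± 0.25 (adjusted p 0.000302 by DESeq2 and 0.0820 by edgeR, range 1.47e-07 to 0.524 over all settings). *Rpl41*, *Tmsb4x* and *Gng13* were called by DESeq2 without each library.

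*Pvalb* and *Casq2* encode calcium binding proteins. *Pvalb* is made by Purkinje cells and interneurons of the molecular layer. *Pvalb* RNA lay at 344, 331 and 267 CPM in mutant and 474, 465 and 467 CPM in B6J libraries. *Pvalb* footprints lay at 2501, 2336 and 2607 CPM in mutant and 1602, 945 and 1823 CPM in B6J libraries. Mutant libraries were lowest in RNA and highest in footprints, with no overlap. Its changes were -0.58 ± 0.18 in RNA, 0.77 ± 0.19 in footprints and 1.35 ± 0.26 in TE (adjusted p 0.000824 by DESeq2 and 0.0939 by edgeR, range 1.28e-06 to 0.524 over all settings). *Casq2* RNA was 37.4, 42.7 and 34.1 CPM in mutant and 52.2, 54.7 and 51.1 CPM in B6J libraries. *Casq2* footprints were 136, 129.9 and 89.7 CPM in mutant and 64.0, 61.5 and 78.3 CPM in B6J libraries. The same order held. For RNA the change was -0.47 ± 0.15, footprints rose by 0.80 ± 0.16 in edgeR (adjusted p 0.00602) and the TE change was 1.26 ± 0.22 (adjusted p 0.000210 by DESeq2 and 0.0820 by edgeR, range 2.25e-09 to 0.524 over all settings). DESeq2 called both without each library, and by its RNA test they belong to the offset class.

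Of 18 serine and one-carbon enzymes tested, 7 had higher and 1 lower RNA, 9 had higher footprints in edgeR, and the median TE change was 0.18 (TE 0.0844 without mutant RNA library 1, 0.0793 without mutant footprint library 1, 0.0545 without B6J footprint library 1, 0.0572 without B6J footprint library 2, 0.31 without B6J footprint library 3 and -0.0101 with the Y-linked term). *Col7a1*, a collagen gene, had footprints of 28.9, 35.4 and 6.21 CPM in mutant and 2.04, 2.69 and 1.46 CPM in B6J libraries. Mutant library 3 was far lower than the other mutant libraries and still above the controls. The TE change of *Col7a1* was 2.87 ± 0.78 (adjusted p 0.00754 by DESeq2 and 0.238 by edgeR, range 9.81e-09 to 0.637 over all settings), lost in DESeq2 without B6J footprint library 2 (0.0692). With so few control footprints *Col7a1*, like *Cd300a*, passed the count filter through mutant libraries, and this call is not followed further. No other of the 37 collagens was called, and their median TE change was 0.28 (TE -0.0444 without mutant footprint library 2, 0.0944 without B6J footprint library 3 and 0.44 with the Y-linked term).

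*Rbfox3*, *Lsm14b*, *Cadm3*, *Lingo1* and *Zfp706* were among the 47 footprint only genes with lower TE, for which DESeq2 called no RNA change. *Rbfox3* encodes NeuN, a splicing factor of mature neurons. *Rbfox3* RNA lay at 351, 403 and 328 CPM in mutant and 330.2, 384 and 333 CPM in B6J libraries. *Rbfox3* footprints lay at 134, 112 and 94.4 CPM in mutant and 214, 234 and 196 CPM in B6J libraries. RNA overlapped and footprints did not. Footprints fell by 0.92 ± 0.14 in edgeR (adjusted p 0.000952), and the TE change was -0.97 ± 0.19 (adjusted p 0.000824 by DESeq2 and 0.0939 by edgeR, range 1.82e-05 to 0.524 over all settings). *Lsm14b*, which encodes an RNA binding protein, had RNA of 70.5, 77.5 and 71.5 CPM in mutant and 73.3, 71.2 and 69.8 CPM in B6J libraries. Its footprints were 102, 92.0 and 96.6 CPM in mutant and 144, 153 and 142 CPM in B6J libraries. The RNA values overlapped closely, while the footprint values formed separate ranges. Footprints fell by 0.59 ± 0.10 in edgeR (adjusted p 0.00213), and the TE change was -0.63 ± 0.14 (adjusted p 0.000227 by DESeq2 and 0.124 by edgeR, range 0.000126 to 0.540 over all settings).

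*Cadm3* encodes a cell adhesion protein of axons. *Cadm3* RNA lay at 1063, 944 and 828 CPM in mutant and 1207, 1283 and 1250.5 CPM in B6J libraries. *Cadm3* footprints lay at 675, 619 and 634 CPM in mutant and 1283, 1904 and 1477 CPM in B6J libraries. Mutant libraries were lower in both assays, and more so in footprints. Footprints fell by 1.27 ± 0.15 in edgeR (adjusted p 0.000133), the RNA change was -0.40 ± 0.14 and the TE change -0.87 ± 0.20 (adjusted p 0.00393 by DESeq2 and 0.138 by edgeR, range 0.000152 to 0.540 over all settings). *Lingo1*, a gene for a membrane protein that limits myelination, had footprints of 31.1, 40.7 and 35.6 CPM in mutant and 74.0, 66.2 and 62.7 CPM in B6J libraries. Its footprints did not overlap. They fell by 0.92 ± 0.16 in edgeR (adjusted p 0.00243), with an RNA change of 0.13 ± 0.15 and a TE change of -1.06 ± 0.22 (adjusted p 0.00223 by DESeq2 and 0.0944 by edgeR, range 0.000725 to 0.524 over all settings). *Zfp706*, a gene for a small zinc finger protein, had footprints of 8.42, 17.6 and 9.17 CPM in mutant and 32.5, 32.1 and 22.5 CPM in B6J libraries. Here mutant library 2 lay closest to the controls. Its footprints fell by 1.38 ± 0.22 in edgeR (adjusted p 0.00128), and the TE change was -1.25 ± 0.28 (adjusted p 0.00246 by DESeq2 and 0.124 by edgeR, range 1.83e-08 to 0.637 over all settings). DESeq2 called *Rbfox3*, *Lsm14b*, *Cadm3*, *Lingo1* and *Zfp706* without each library. Of 280 zinc finger genes tested, 175 had a TE change below 0, the median was -0.12 (TE -0.19 without mutant footprint library 1, -0.18 without B6J footprint library 3 and -0.0462 with the Y-linked term), and *Zfp706* was the only DESeq2 call.

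The 1 amplified gene with lower TE was *Prrt2*, which encodes a presynaptic protein that binds SNARE proteins. *Prrt2* RNA lay at 263, 214 and 209 CPM in mutant and 304, 319.9 and 326 CPM in B6J libraries. *Prrt2* footprints lay at 179.8, 161 and 171 CPM in mutant and 318, 411 and 396 CPM in B6J libraries. The groups did not overlap in either assay, and the gap was wider in footprints. The RNA change was -0.47 ± 0.12, footprints fell by 1.14 ± 0.13 in edgeR (adjusted p 0.000124) and the TE change was -0.67 ± 0.18 (adjusted p 0.0199 by DESeq2 and 0.204 by edgeR, range 0.00119 to 0.524 over all settings), lost in DESeq2 without mutant footprint library 2 (0.0575), mutant RNA library 1 (0.0563), B6J footprint library 2 (0.0736), B6J RNA library 1 (0.114) or B6J RNA library 2 (0.0805).

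**Figure D2:**
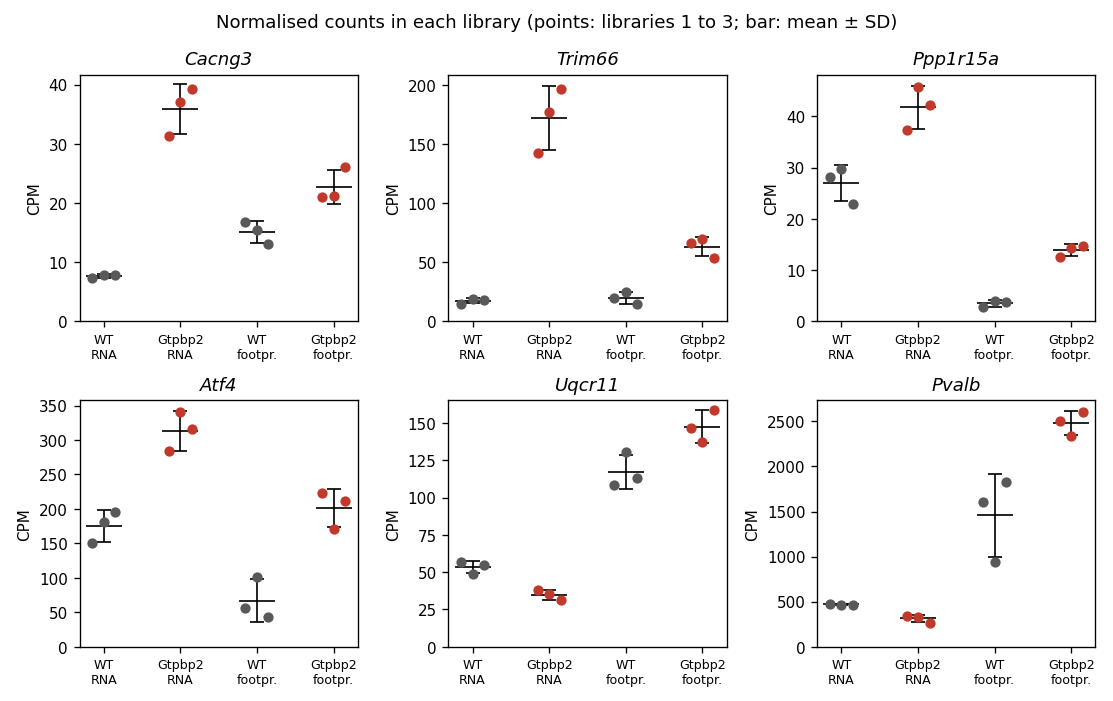
Levels of *Cacng3*, *Trim66*, *Ppp1r15a*, *Atf4*, *Uqcr11* and *Pvalb* in each library, RNA and footprints. Points are libraries 1 to 3 of each group, and the bar and line give the mean and standard deviation in CPM.

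With all libraries *Rbfox3* was the only gene of the marker lists called for TE. The DESeq2 calls *Pvalb*, *Casq2* and *Gng13* were on none of these lists, and *Pvalb* is made by Purkinje cells among others. Markers are given here as lists, because in whole tissue fewer cells of a type and less RNA per cell cannot be told apart. All 14 granule neuron markers were tested, and all had a TE change below 0, with medians of -0.45 for TE, -0.41 for RNA and -0.92 for footprints. In edgeR 10 had lower footprints and 4 lower RNA, and DESeq2 called *Rbfox3* lower for TE. With each assay fitted alone, 8 had lower footprints, 8 lower RNA and 1 higher RNA. Summed over the list, led by *Cbln3*, levels were in RNA 6479.8, 6931 and 5943 CPM in mutant and 8367, 8726 and 8587 CPM in B6J libraries, and in footprints 5094, 4418 and 4318 CPM in mutant and 6649, 9600.0 and 7464 CPM in B6J libraries. None was at 0 in any library, and every mutant sum lay below every control sum in both assays. *Cbln3*, the gene of a synapse organiser, had a TE change of -0.63 ± 0.28, *Neurod1*, a neuronal transcription factor gene, -0.61 ± 0.23, and *Slc17a7*, the gene of a vesicular glutamate transporter, -0.82 ± 0.25 (edgeR adjusted p 0.391, 0.321 and 0.244). DESeq2 called *Cbln3* only without B6J footprint library 1 (0.00695), *Neurod1* only without B6J footprint library 1 (0.00131), and *Slc17a7* only without mutant footprint library 1 (0.0357), B6J footprint library 1 (0.0278) or B6J footprint library 3 (0.0140). Their part in the result was not tested.

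Purkinje cell markers lay on the other side. All 9 were tested and had a TE change above 0, with medians of 0.67 for TE, -0.38 for RNA and 0.30 for footprints (TE 0.44 without B6J footprint library 2 and 0.32 with the Y-linked term), and 6 had an unadjusted edgeR p below 0.05. At this cutoff 6.74% of all genes tested were higher. With all libraries neither edgeR nor DESeq2 called any of the 9 markers for TE. Summed levels, led by *Itpr1*, were in RNA 7876, 8714 and 7167 CPM in mutant and 10499, 11518 and 8792 CPM in B6J libraries, and in footprints 16625, 17022 and 14009 CPM in mutant and 11213, 7672 and 15025 CPM in B6J libraries. No marker was at 0, the footprint sums overlapped through B6J library 3, and the RNA sums did not overlap. *Itpr1*, the gene of a calcium release channel, had a TE change of 1.07 ± 0.32 (adjusted p 0.244 by edgeR and 0.0661 by DESeq2, range 0.00102 to 0.797), called by edgeR without B6J footprint library 3 (0.0469) and by DESeq2 without mutant footprint library 3 (0.0184), B6J footprint library 3 (0.00102) or B6J RNA library 3 (0.0192). For *Calb1*, which encodes calbindin, it was 1.04 ± 0.37 (edgeR adjusted p 0.295), called without B6J footprint library 3 (0.0469), and its footprints lay at 1031 CPM in B6J library 2 against 2169 and 2941 CPM in the other control libraries. Whether these markers had a part in the result for *Pvalb* and *Casq2* was not tested.

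All 12 oligodendrocyte markers and all 9 endothelial markers also had a TE change above 0. The medians of the oligodendrocyte markers were 0.29 for TE, 0.01 for RNA and 0.23 for footprints (TE 0.0296 without B6J footprint library 2 and 0.069 with the Y-linked term). The oligodendrocyte sums, led by *Mbp*, were in RNA 14157, 10597 and 11490.0 CPM in mutant and 13064, 11369 and 13516 CPM in B6J libraries, and in footprints 16640.0, 17994 and 15977 CPM in mutant and 13528, 11619 and 17670.0 CPM in B6J libraries, and the groups overlapped in both assays. For the endothelial markers the medians were 0.29 for TE, 0.50 for RNA and 0.69 for footprints (TE 0.0305 without B6J footprint library 2), and in edgeR 7 had higher footprints and 1 higher RNA. With each assay fitted alone, 2 had higher footprints and 5 higher RNA. Their sums, led by *Slco1a4*, were in RNA 304, 399.6 and 439 CPM in mutant and 274, 259.9 and 262 CPM in B6J libraries, and in footprints 978, 837 and 922 CPM in mutant and 547, 379 and 585 CPM in B6J libraries. Both assays separated the groups. Of 12 microglia markers 8 had higher RNA and 7 higher footprints in edgeR, with medians of -0.10 for TE, 1.11 for RNA and 1.13 for footprints (TE -0.30 with protein-coding transcripts only, -0.36 without mutant footprint library 3 and 0.0938 with the Y-linked term). Fits of each assay alone gave 9 with higher RNA and 3 with higher footprints. The microglia sums, led by *Csf1r*, were in RNA 262, 267 and 274 CPM in mutant and 136, 130.0 and 139 CPM in B6J libraries, and in footprints 449.7, 421 and 737 CPM in mutant and 289, 332 and 262 CPM in B6J libraries. The sums did not overlap in either assay, and mutant footprint library 3 was the highest. *Csf1r*, a growth factor receptor gene, rose by 0.76 ± 0.13 in RNA in edgeR (adjusted p 0.00270), and its TE change was -0.38 ± 0.19. None of these markers was at 0 in any library, and their part in the result was not tested.

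The 12 astrocyte and Bergmann glia markers had medians of 0.25 for TE, -0.18 for RNA and 0.05 for footprints (TE -0.0019 without B6J footprint library 1), with 8 above and 4 below 0 in TE. Their sums, led by *Slc1a3*, were in RNA 6328, 6299.7 and 5809.7 CPM in mutant and 6896, 7158 and 6520.5 CPM in B6J libraries, and in footprints 11670.0, 10657 and 12417 CPM in mutant and 8916, 8501 and 11521 CPM in B6J libraries. None was at 0, and the groups overlapped in footprints. The most abundant of them, the glutamate transporter gene *Slc1a3*, had a TE change of 0.52 ± 0.19, called by DESeq2 only without B6J footprint library 3 (0.0166). Choroid plexus markers depended on the library: all 7 had a TE change above 0, with medians of 1.06 for TE, -0.68 for RNA and 0.50 for footprints (TE 0.55 without B6J RNA library 1 and 4.88 with the Y-linked term), none was at 0 and none was called by either tool. Their sums, led by *Ttr*, were in RNA 87.2, 1141 and 734 CPM in mutant and 1862, 1214 and 283 CPM in B6J libraries, and in footprints 522, 9809 and 9957 CPM in mutant and 5808, 3950.1 and 79.9 CPM in B6J libraries. Blood markers, 6 of 7 tested, were as uneven, with medians of 1.38 for TE, -0.24 for RNA and 1.08 for footprints (TE 0.36 without mutant footprint library 2), and 1 was at 0 in B6J footprint library 2. The blood sums, led by *Hbb-bs*, were in RNA 338, 1566 and 826 CPM in mutant and 1429, 775 and 1136 CPM in B6J libraries, and in footprints 979, 3261 and 779.5 CPM in mutant and 632, 471 and 1023 CPM in B6J libraries. The part of these markers in the result was not tested.

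Of the 11 bone and connective tissue markers 9 were tested, with medians of -0.15 for TE, 0.14 for RNA and -0.06 for footprints (TE 0.15 without mutant RNA library 2 and -0.40 without B6J footprint library 1), and at most 2 were at 0 in any library. Their sums, led by *Sparc*, were in RNA 1948, 1821 and 1736 CPM in mutant and 1404, 1617 and 1553 CPM in B6J libraries, and in footprints 3893, 3983 and 4874 CPM in mutant and 2979, 3594 and 3165 CPM in B6J libraries. Skeletal muscle markers had medians of -0.88 for TE, -0.31 for RNA and -0.38 for footprints (TE -1.57 without a filter, -0.028 at 50 counts, -0.40 without mutant footprint library 3 and 0.26 with the Y-linked term) over 5 tested, and 0 to 4 of 15 were at 0. The muscle sums, led by *Neb*, were in RNA 47.5, 39.9 and 43.4 CPM in mutant and 48.5, 46.2 and 51.8 CPM in B6J libraries, and in footprints 38.3, 47.7 and 20.3 CPM in mutant and 63.1, 70.0 and 37.8 CPM in B6J libraries. Forebrain markers had medians of -0.90 for TE, 0.51 for RNA and -0.18 for footprints (TE -1.39 without a filter, 0.36 with filterByExpr and 0.89 at 50 counts) over 4 tested, and 0 to 2 of 8 were at 0. The forebrain sums, led by *Ppp1r1b*, were in RNA 139, 129 and 100.2 CPM in mutant and 154, 166 and 136 CPM in B6J libraries, and in footprints 197, 186 and 227 CPM in mutant and 119.6, 118 and 205 CPM in B6J libraries. The bone sums were higher in every mutant library than in any control in both assays, the muscle and forebrain sums overlapped in both, and their part in the result was not tested.

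**Figure D3:**
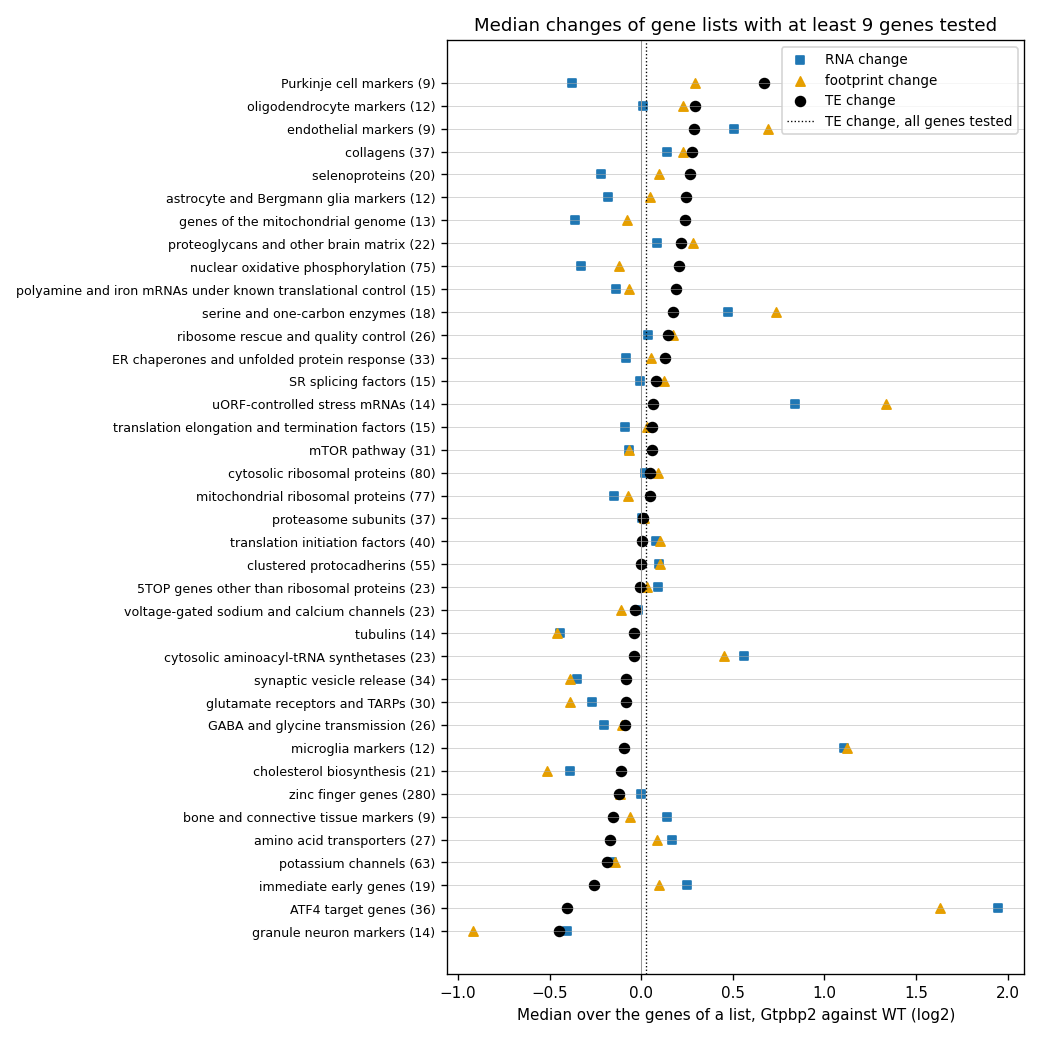
Median RNA, footprint and TE log2 change of each list with at least 9 genes tested. The dotted line marks the median TE change of all genes tested, 0.03.

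Other lists changed more in level than in TE. Of 21 cholesterol biosynthesis genes 14 had lower footprints and 5 lower RNA in edgeR, with medians of -0.11 for TE, -0.39 for RNA and -0.52 for footprints (TE -0.0514 without mutant RNA library 3, -0.20 without mutant footprint library 1, -0.23 without B6J footprint library 1, 0.0425 without B6J footprint library 3 and -0.30 with the Y-linked term). With each assay fitted alone, edgeR called 4 lower in footprints and 12 lower in RNA. DESeq2 called none of the 21 for TE. By unadjusted edgeR p below 0.05, 4 were lower and 0 higher, against 5.28% and 6.74% of all genes tested. *Sqle*, the squalene epoxidase gene, had footprints that fell by 0.69 ± 0.12 in edgeR (adjusted p 0.00295) and a TE change of -0.40 ± 0.17, while the most abundant, *Hmgcs1*, had a TE change of 0.27 ± 0.28. Of 34 synaptic vesicle release genes 9 had lower RNA and 13 lower footprints, with medians of -0.08 for TE, -0.35 for RNA and -0.39 for footprints (TE -0.18 to -0.0232 without 1 library). Fits of each assay alone gave 18 with lower RNA and 5 with lower footprints. *Snap25*, the SNARE gene most abundant among them, fell by 0.75 ± 0.14 in RNA in edgeR (adjusted p 0.00405) and had a TE change of 0.20 ± 0.19. Of 14 tubulins 4 had lower RNA and 7 lower footprints, with medians of -0.04 for TE, -0.44 for RNA and -0.46 for footprints (TE -0.19 to 0.0239 without 1 library), and *Tuba1a* had a TE change of -0.61 ± 0.24. Fitted alone, the assays gave 8 tubulins with lower RNA and 6 with lower footprints.

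The remaining lists stayed near the median of all genes or were mixed. The median TE change was -0.01 for 23 5TOP genes other than ribosomal proteins, mRNAs whose translation depends on mTOR, and 0.06 for 31 genes of the mTOR pathway. It was 0.01 for 40 translation initiation factors, which include *Eif6*, 0.06 for 15 translation elongation and termination factors, and 0.14 for 26 genes of ribosome rescue and quality control (TE 0.0714 without mutant RNA library 1, -0.0118 without B6J RNA library 3, 0.0107 without mutant footprint library 1, -0.0005 without mutant footprint library 2, 0.0691 without B6J footprint library 2 and -0.0022 without B6J footprint library 3). For 15 polyamine and iron mRNAs under known translational control it was 0.19 (TE 0.10 without B6J RNA library 1, 0.11 without B6J RNA library 3, 0.10 without mutant footprint library 1, 0.0043 without mutant footprint library 2, 0.0801 without B6J footprint library 1, 0.0407 without B6J footprint library 2, 0.0991 without B6J footprint library 3 and 0.004 with the Y-linked term), with 8 above and 7 below 0. The values were 0.01 for 37 proteasome subunits, 0.08 for 15 SR splicing factors and 0.00 for 55 clustered protocadherins. They were 0.22 for 22 proteoglycans and other brain matrix genes, which include *Tnc* (TE 0.12 without mutant footprint library 1, 0.14 without mutant footprint library 3, 0.14 without B6J footprint library 1 and 0.13 without B6J footprint library 3), and -0.04 for 23 voltage-gated sodium and calcium channels. DESeq2 called 1 initiation factor, *Eif6*, and 1 channel lower for TE and no other gene of these lists.

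Sequence features of the coding sequence and leader were set beside TE as a description, for the 99.79% of tested genes with a coding sequence. By AGA codons per 100 codons, genes were split into 3 equal groups, whose median TE change was 0.00 with fewest AGA codons, 0.03 in between and 0.05 with most. The group medians of log2 counts, taken against the median of all genes, had a standard deviation between libraries of 0.0408 with fewest and 0.04695 with most. The group with most lay above that with fewest in 25 of 26 settings. The study also ran its TE analysis with footprints at AGA codons taken out, and no such step was taken here. Footprints of ribosomes paused at AGA codons can thus enter TE, and their part was not tested. Of genes on a list of AGA pausing in at least 2 of 3 mutant libraries, made by the study from these same footprints and so not independent of them, 394 were tested, with a median TE change of 0.01 against 0.03 for the others. By ATGs in the leader, the median was 0.05 for 6241 genes with 0, 0.03 for 2766 with 1, 0.00 for 1329 with 2 and -0.03 for 2568 with 3 or more, and it fell in this order in 25 of 26 settings. The standard deviation of these group medians between libraries was 0.0204, 0.0188, 0.0345 and 0.0334, about the size of the steps between neighbouring groups. The settings, here and for AGA codons, share most of their libraries, so they are not independent. A single coding transcript stood for each gene, for *Ppp1r15a* Ppp1r15a-202 with 7 leader ATGs, not the Ppp1r15a-201 shown above. In 5 groups of rising coding length the medians were 0.05, 0.03, -0.02, 0.02 and 0.04.

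The TE change was last tested directly between mutants. The libraries of B6J.*Gtpbp1*-/- were compared with those of B6J-*Gtpbp2*-/- without the shared controls. Of 13292 genes edgeR called 0 for a difference in TE, with 1483 at an unadjusted p below 0.05, and DESeq2 called 155. Without mutant footprint library 3 of B6J-*Gtpbp2*-/- edgeR called 177. The comparison of B6J.*Gtpbp1*-/- with B6J called 0 of 13086 genes in edgeR, with 1170 at an unadjusted p below 0.05. It shares the B6J libraries with the results above, so values are given side by side only. The TE change of *Cacng3* was -1.63 in B6J-*Gtpbp2*-/- and -0.88 in B6J.*Gtpbp1*-/-, that of *Trim66* -1.60 and -1.76, and that of *Slc7a3* -1.28 and -0.81. For *Ppp1r15a* the values were 1.35 and 0.87, for *Uqcr11* 0.96 and 0.79, for *Pvalb* 1.35 and 0.53, and for *Rbfox3* -0.97 and -0.38. In edgeR the smallest adjusted p of any gene between the mutants was 0.111. Of the genes named in this text, DESeq2 called *Tuba1a* (8.10e-08), *Casq2* (0.0462), *Pvalb* (0.0479), *Cadm3* (0.00106), *Zfp706* (0.00214), *Prrt2* (0.000560), *Neurod1* (0.0341) and *Col7a1* (0.000476) for a difference between the mutants. *Col7a1* is listed here although its call against B6J was not followed further.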

How the data were processed

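RNA and ribosome footprints of whole cerebella were used from 12 libraries, 3 per genotype and assay, and 6 libraries of B6J.*Gtpbp1*-/- for 1 further comparison. The deposited RNA files hold estimated counts per transcript, which the authors made with kallisto 0.42.4, and the deposited TPM of kallisto, used for single transcripts only. The deposited footprint files hold counts per gene, which the authors made with HISAT2 2.1.0, Bowtie2 2.2.3 and featureCounts. Estimated counts were summed by gene and rounded. A gene was kept if 3 or more of the 6 libraries of each assay held 10 or more of its counts, and genes with the name prefix Hist were left out, while other histone genes, *H3f3b* and *H1f0* of the DESeq2 calls among them, stayed in. Coding sequences and start sites came from Gencode M21. Fits used edgeR 4.0.16 (TMM, robust quasi-likelihood), with DESeq2 1.42.0 and limma 3.58.1 as alternatives, in R 4.3.3 and Python 3.11.15, and the code was tested on simulated data. The 31 gene lists and 11 marker lists were described by counts and medians. Genes were named by smallest p per direction, list and class among TE calls, as most abundant list members, or in any case (*Gtpbp2*, *Gtpbp1*, *Atf4*, *Ddit3*, *Ppp1r15a*, *Slc7a3*, *Sesn2*, *Trim66*, *Chac1*, *Shmt2*, *Tyro3*, *Tnc*), and others of the 160 DESeq2 calls or of lists after their values were seen. Members and lists were chosen with earlier results of these data known. Alternatives covered scaling, test, filter, transcripts counted, replicate blocks, libraries in the fit and each library left out.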

Additional observations from a re-analysis of the deposited data

How the results depend on the processing

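The TE result depended most on the test and on single libraries. DESeq2 called 160 genes for TE, 69 higher and 91 lower, where edgeR called 1. Its classes were 2 amplified, 22 offset and 45 footprint only among the higher, and 1 amplified, 43 offset and 47 footprint only among the lower. DESeq2 called 1461 genes for RNA (641 higher, 820 lower) and 2066 for footprints (843 higher, 1223 lower), and 155 for TE between the mutants. With limma-voom 0 genes passed for TE, 0 lower and 0 offset lower (1345 at an unadjusted p below 0.05), 2721 for RNA (1116 higher, 1605 lower) and 326 for footprints (143 higher, 183 lower). Fitted alone, the RNA libraries gave 2247 calls (1049 higher, 1198 lower) and the footprint libraries 388 (174 higher, 214 lower). The cause of these gaps was not tested.

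Without a filter edgeR called 2 genes for TE, 2 lower, both offset, and so it did with protein-coding transcripts only. With effective transcript length it called 0, 0 lower and 0 offset lower (1436 unadjusted), and the *Gtpbp2* RNA change turned to 0.34. With all 18 libraries it called 5, 4 of them higher, 1 offset and 3 footprint only. At least 50 counts left 289 genes with lower RNA, with fewer genes tested. The Y-linked term, tried after the values were seen, left 0 genes for TE, 0 lower and 0 offset lower (884 unadjusted), 445 for RNA (203 higher, 242 lower) and 102 for footprints (44 higher, 58 lower). It takes up degrees of freedom, and all 3 libraries it marks are B6J.

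Replicate numbers do not pair the samples: residual correlations of libraries of one number ran from -0.03 to 0.134 between RNA and footprints and from -0.278 to 0.178 between genotypes. With a block for number within genotype edgeR called 0 genes for TE, 0 lower (1340 unadjusted).

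By AGA codons, the median TE change of the group with fewest was -0.0433 with upper quartile scaling, -0.0629 with protein-coding transcripts and -0.0409 with effective length. That of the middle group was -0.016 with upper quartile scaling, -0.0066 with TMM within each assay, 0.007 with RLE, 0.0066 with DESeq2, -0.0028 without a filter, -0.0139 at 50 counts, -0.0367 with protein-coding transcripts, -0.0201 with effective length and 0.0497 with the Y-linked term. With protein-coding transcripts that with most was -0.0205 and that of the pausing list -0.0526.

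List medians of TE moved as follows. Protein-coding transcripts gave 0.19 for selenoproteins and -0.24 for GABA and glycine transmission, and effective length -0.08 for translation initiation factors and -0.20 for GABA and glycine transmission. The Y-linked term gave -0.20 for aminoacyl-tRNA synthetases, -0.0101 for serine and one-carbon enzymes, 0.35 for ER chaperones, 0.16 for selenoproteins, 0.004 for polyamine and iron mRNAs, -0.20 for synaptic vesicle release, -0.10 for clustered protocadherins, -0.0462 for zinc finger genes, -1.03 for immediate early genes and -0.30 for cholesterol biosynthesis.

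Of 195 gene results (3 for each of 65 genes), 176 kept their sign in every setting, and the others turned in 1 setting or more. The TE change of *Aars* was -0.0142 with upper quartile scaling, -0.001 with TMM within assays, -2e-04 without a filter, -0.0117 at 50 counts, -0.0404 with protein-coding transcripts, -0.0198 with effective length and -0.144 with the Y-linked term. That of *Rpl3* was -0.0088, -0.0075, -0.021, -0.0013 and -0.0773 with upper quartile scaling, 50 counts, protein-coding transcripts, effective length and the Y-linked term, and -0.0032 with limma-voom. The footprint change of *Atp5b* was -0.0147 with RLE and with DESeq2, -0.0297 without a filter, -0.0266 with protein-coding transcripts, -0.018 with effective length and -0.201 with the Y-linked term. In limma-voom the TE change of *Tnc* was -0.0238 and the footprint change of *mt-Co1* 0.0128. The Y-linked term also turned the TE change of *Tnc* to -0.0555, *Hmgcs1* to -0.0992, *Psat1* to -0.205 and *mt-Co1* to -0.628, and the footprint change of *Slc1a3* to -0.0846.

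Leaving out 1 library at a time, counts ran from 0 to 158 for edgeR TE calls, 0 to 75 for lower edgeR TE calls, 272 to 1048 for RNA calls, 118 to 506 for lower RNA calls, 0 to 21 for offset genes with lower TE, 153 to 542 for higher RNA calls, 664 to 1866 for footprint calls, 268 to 791 for higher footprint calls, 393 to 1075 for lower footprint calls, 0 to 83 for higher edgeR TE calls, 0 to 64 for footprint only genes with higher TE, 0 to 54 for footprint only genes with lower TE, 0 to 17 for offset genes with higher TE, 0 to 2 for amplified genes with higher TE, 0 to 177 for TE calls between the mutants, 30 to 443 for higher DESeq2 TE calls, 64 to 807 for DESeq2 TE calls and 34 to 364 for lower DESeq2 TE calls. Medians of TE ran from -0.0118 to 0.21 for ribosome rescue and quality control, -0.0302 to 0.0343 for the middle group by AGA codons, -0.0327 to 0.0568 for genes with most AGA codons, -0.0561 to 0.0258 for the pausing list, -0.0765 to 0.0935 for cytosolic ribosomal proteins, -0.27 to 0.56 for genes of the mitochondrial genome, -0.093 to 0.0427 for translation initiation factors, -0.24 to -0.024 for GABA and glycine transmission, -0.19 to -0.10 for zinc finger genes, -0.0757 to 0.0166 for genes with fewest AGA codons, 0.12 to 0.35 for selenoproteins, 0.0043 to 0.19 for polyamine and iron mRNAs under known translational control, -0.0444 to 0.37 for collagens and 0.0915 to 0.24 for nuclear oxidative phosphorylation. Gene values ran from -0.11 to 0.0956 for the TE change of *Aars*, -0.0497 to 0.25 for the RNA change of *Lingo1*, -0.15 to 0.19 for the TE change of *Rpl3*, -0.0389 to 0.12 for the RNA change of *Rbfox3*, -0.0086 to 0.0685 for the RNA change of *Lsm14b*, -0.12 to 0.0198 for the RNA change of *Tmsb4x*, -0.14 to 0.78 for the TE change of *Tnc*, -0.0875 to 0.10 for the footprint change of *Atp5b*, -0.0132 to 0.13 for the footprint change of *Armh4*, -0.44 to 0.74 for the footprint change of *mt-Co1*, -0.16 to 0.82 for the TE change of *Ddit3*, -0.16 to 1.03 for the TE change of *mt-Co1*, -0.29 to 0.37 for the TE change of *Selenop*, -0.15 to 0.52 for the footprint change of *Selenop*, -0.0007 to 0.16 for the footprint change of *Slc1a3*, -0.0081 to 0.38 for the TE change of *Psat1* and -0.21 to 0.0204 for the TE change of *Nars*. The cause of these shifts was not tested.

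Without some library the TE medians of these lists, besides those above, also turned sign: 5TOP genes other than ribosomal proteins, uORF-controlled stress mRNAs, cytosolic aminoacyl-tRNA synthetases, mitochondrial ribosomal proteins, proteasome subunits, translation elongation and termination factors, mTOR pathway, voltage-gated sodium and calcium channels, clustered protocadherins, SR splicing factors, tubulins, immediate early genes, cholesterol biosynthesis, astrocyte and Bergmann glia markers, microglia markers and bone and connective tissue markers.

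Each group has 3 libraries, with 3630823 to 10442573 counts in footprints. Recovery of simulated TE changes was used to test the code, and the power of the TE test is not reported here. Few footprints of genes such as *Cd300a*, *Elfn1* and, in B6J libraries, *Col7a1* make their values coarse. The assay and the labelled batch cannot be told apart. RNA was counted over whole transcripts and footprints by gene, so transcript choice can enter TE. Footprints of paused ribosomes were not removed here and can enter TE too. Whole cerebellum mixes cell types, and some marker lists separated the genotypes in summed levels. Sex is not labelled. The genes of the 160 DESeq2 calls were named with values known, and the lists were not tested as sets.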
